A study of Mus musculus with 12 samples.

Results

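The Notch pathway genes Notch1, Notch2, Notch4, Jag1, Jag2, Dll4, Lfng, Hes1, Hey1 and Hey2 were followed in TSEC, a mouse cell line immortalized from the liver's sinusoidal endothelium. The 10 genes were chosen by name, and a gene was taken as measured where a transcript cluster, the array's unit for 1 transcript, was annotated to its symbol alone. By this rule 8 of the 10 genes were measured, each by 1 cluster, out of 26076 clusters in all. Dll4 and Hey2 had none and were not analysed here. The deposited table holds only clusters over a log2 level of 4.5 in at least 1 array. A gene without a cluster may therefore have had a signal under that level rather than no probes. RNA from 12 cultures was hybridized to Mouse Gene 2.0 ST arrays, 3 per group. The FFA+INT-767 cultures were given oleic acid at 0.66 mM, palmitic acid at 0.33 mM and INT-767 at 30 µM, FFA cultures the fatty acids alone, INT-767 cultures the compound alone and Media cultures neither, all for 8 hours per the labels. INT-767 activates FXR, a nuclear receptor for bile acids, and TGR5, their membrane receptor. The methods give another fatty acid dose and another time, and which applies is not known. The cells are 1 cultured line with few fenestrae and an activated phenotype, so they stand for resting sinusoidal endothelium only in part. Levels are the deposited log2 expression values, on which a difference of 1 is a doubling.

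Notch receptors are single-pass membrane proteins that are bound by Jagged or Delta-like ligands on a neighboring cell. Binding lets ADAM proteases and then gamma-secretase cut the receptor, and the freed intracellular domain enters the nucleus, where it joins the DNA-binding protein RBPJ and Mastermind coactivators and turns on repressor genes of the Hes and Hey families. Fringe enzymes such as Lfng add sugars to the receptor and shift its preference from Jagged toward Delta-like ligands. In the endothelium the pathway is known for arterial identity and the choice between tip and stalk cells, and in the liver for the sinusoidal phenotype and for bile duct formation.

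Lfng and Jag1 carried the largest differences among the enzyme and ligand genes, so the 250 bases before their annotated starts are shown with the letters of 3 motifs in capitals. The sequences are from RefSeq on GRCm38.p6, in a table of promoters that matched 8 of the 10 genes, and those of Hes1 and Hey1 were not used here. Capitals mark TGGGAA, the core of RBPJ sites, CACGTG, the E-box that Hes and Hey proteins can bind, and CACGCG, the class C site of Hes proteins, on either strand. The Lfng window lies at chr5:140607091-140607340 on the plus strand and the Jag1 window at chr2:137116521-137116770 on the minus strand, each printed 5′ to 3′ on the strand of its gene.
Lfng: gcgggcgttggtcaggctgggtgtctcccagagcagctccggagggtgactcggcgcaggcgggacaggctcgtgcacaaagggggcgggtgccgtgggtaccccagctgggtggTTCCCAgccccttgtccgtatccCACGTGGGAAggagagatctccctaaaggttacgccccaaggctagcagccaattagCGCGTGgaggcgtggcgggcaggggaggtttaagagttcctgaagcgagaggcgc
Jag1: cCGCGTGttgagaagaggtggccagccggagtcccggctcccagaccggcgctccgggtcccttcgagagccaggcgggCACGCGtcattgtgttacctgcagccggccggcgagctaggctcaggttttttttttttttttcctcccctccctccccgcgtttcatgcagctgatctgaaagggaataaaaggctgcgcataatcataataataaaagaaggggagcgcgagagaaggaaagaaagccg
The Lfng window held TGGGAA beginning 135 and 108 bases before the start, a CACGTG at 112 that overlaps the nearer TGGGAA, and a CACGCG at 55. The Jag1 window held CACGCG at 249 and 171 bases before the start and no TGGGAA. Notch2 had a CACGCG at 42 bases, and the windows of Notch1, Notch4 and Jag2 had none of the 3 motifs. Of 32851 windows of this length, 21.6% held TGGGAA, 6.0% CACGTG and 7.6% CACGCG. A match is only a description of the letters.

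Deviations from the group mean were shared between arrays with the same number, with correlations of 0.2 to 0.54 in 18 pairs, and several Notch genes took part in this. Stromal markers also differed by replicate number. The mean log2 level of 9 measured stromal markers of 10 listed, among them collagens and Pdgfra, ranged over 5.90–7.26 in FFA+INT-767, 6.29–7.98 in FFA, 5.78–8.02 in INT-767 and 6.31–8.89 in Media arrays, with replicate 1 highest in every group. Of 14 general endothelial markers 6 were measured (Kdr, Flt1, Eng, Esam, Egfl7 and Mcam) and 4 of these were over 4.5 in all 12 arrays. The mean level of the 6 was 5.09–5.40 in FFA+INT-767, 5.14–5.46 in FFA, 5.13–5.36 in INT-767 and 5.16–5.63 in Media arrays. In every array it lay below the mean of the stromal markers. Pecam1, Cdh5, Tek and Tie1 had no cluster of their own among the deposited ones, which may mean a signal under 4.5 in every array. Of 12 markers of sinusoidal endothelium 6 were measured. Stab1, Stab2, Lyve1, Clec4g, Fcgr2b and Oit3 had no such cluster, and the same limit applies to them. The label of the cells thus rests on part of their defining markers. Hepatocyte markers (4 of 7 measured, mean level 4.49 to 5.13 over the 12 arrays) and leukocyte markers (2 of 8 measured, 5.24 to 5.44) were also few. In such bulk samples fewer cells of a type and less RNA per cell cannot be told apart.

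The receptor genes differed little between groups. Notch1 had levels of 4.65, 4.72 and 4.58 in FFA+INT-767, 4.71, 4.71 and 4.80 in FFA, 4.65, 4.86 and 4.73 in INT-767 and 4.59, 4.60 and 4.68 in Media arrays, a span of 0.28 over the 12 arrays. Every FFA array lay above every Media array, by a mean log2 difference of 0.12 (standard error 0.10, 95% interval −0.12 to 0.36), and the differences within replicate numbers were 0.12, 0.11 and 0.12. The FFA and Media arrays did not overlap in 7.01% of all transcripts tested, so the lack of overlap in Notch1 is a common one. All 12 levels of Notch1 lay within 0.4 of the filter value of 4.5, near the low end of what the authors took as present.

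Notch2, the receptor gene tied to bile duct formation, had levels of 8.66, 8.66 and 8.65 in FFA+INT-767, 8.82, 8.79 and 8.62 in FFA, 8.72, 8.60 and 8.49 in INT-767 and 9.01, 8.71 and 8.60 in Media arrays. The groups overlapped throughout, and the largest difference was −0.17 in INT-767 against Media (standard error 0.15, 95% interval −0.52 to 0.18). Within replicate numbers that difference was −0.30, −0.11 and −0.11. Over the 12 arrays the INT-767 difference was −0.13 (standard error 0.08, unadjusted p = 0.136).

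Notch4, a receptor gene expressed mainly in endothelium, had levels of 4.99, 4.84 and 4.73 in FFA+INT-767, 4.86, 4.87 and 4.80 in FFA, 5.04, 4.82 and 4.69 in INT-767 and 4.88, 4.76 and 4.56 in Media arrays. Its mean was above that of Media by 0.12 in FFA+INT-767 (standard error 0.14), 0.11 in FFA (standard error 0.12) and 0.12 in INT-767 (standard error 0.15), with overlap in each comparison. Replicate 3 was the lowest array of its group in 4 of 4 groups for both Notch2 and Notch4. The replicate means of Notch4 over the 4 groups spanned 0.25, more than the 0.12 between its group means.

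**Figure D1:**
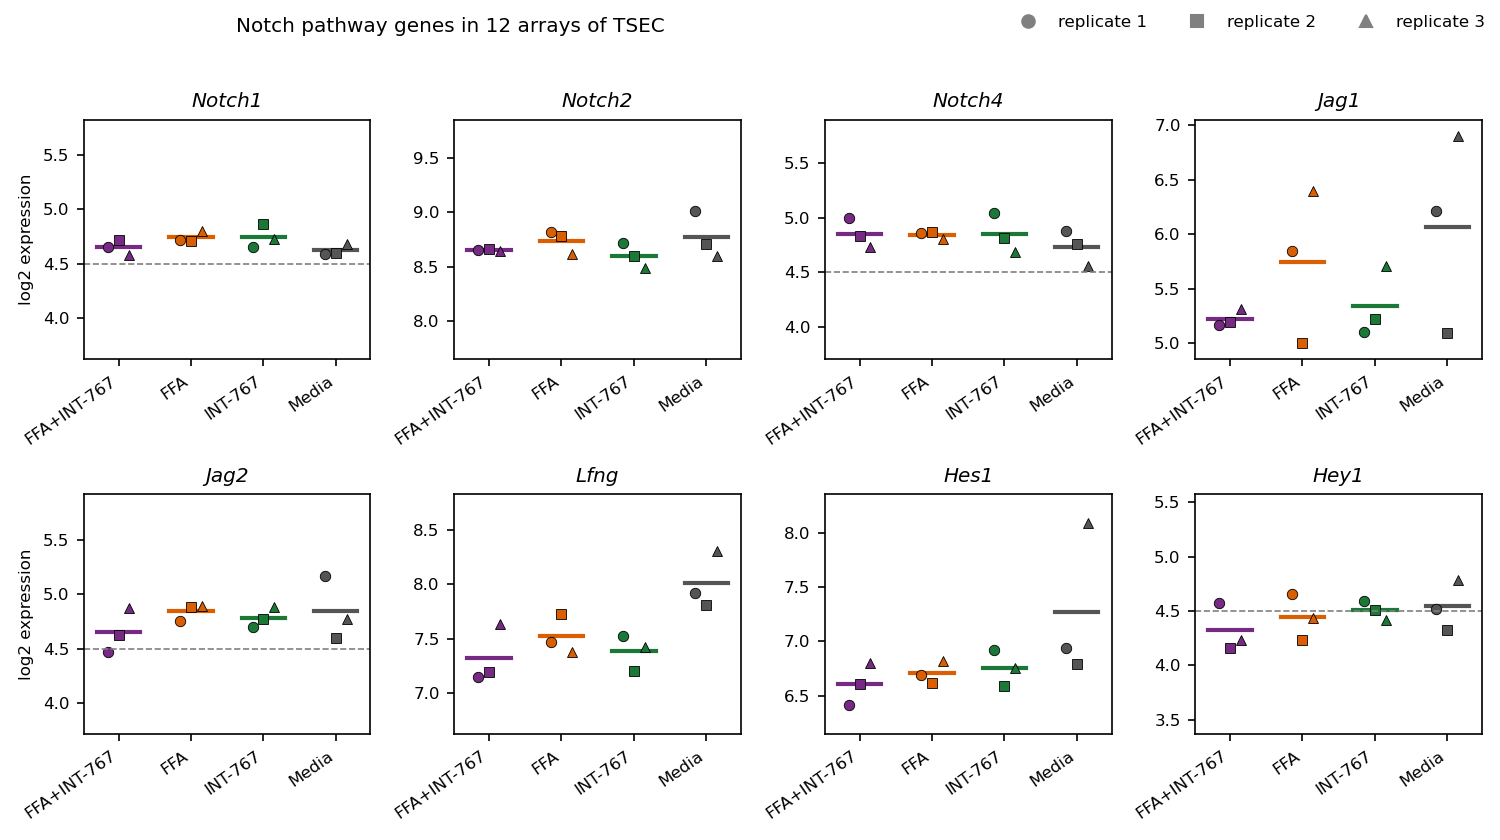
Log2 expression of the 8 measured Notch genes (y axis, each panel on its own range) in each array of the FFA+INT-767, FFA, INT-767 and Media groups. Points are arrays, with the replicate number as the symbol, bars are group means, and the dashed line is 4.5, the level used for a present gene. The 3 Media arrays of Lfng lie above all 9 treated arrays, and Jag1 and Hes1 have a high Media replicate 3 at 6.90 and 8.09.

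Jag1, which encodes a Jagged ligand (chr2:137081451-137116520), varied most of the 8 genes, over 1.90 log2 units. It had levels of 5.16, 5.19 and 5.31 in FFA+INT-767, 5.84, 5.0 and 6.40 in FFA, 5.10, 5.22 and 5.70 in INT-767 and 6.21, 5.09 and 6.90 in Media arrays. The FFA+INT-767 arrays lay close together, with a mean of 5.22 ± 0.08, against 5.75 ± 0.70 in FFA, 5.34 ± 0.32 in INT-767 and 6.07 ± 0.91 in Media arrays (SD, n = 3 each). All 3 FFA+INT-767 arrays lay above Media replicate 2 and below the other two Media arrays.

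The mean Jag1 difference from Media was −0.85 in FFA+INT-767 (standard error 0.41, unadjusted p = 0.0792), −0.73 in INT-767 (standard error 0.44, unadjusted p = 0.143) and −0.32 in FFA (standard error 0.52, 95% interval −1.55 to 0.91). Over the 12 arrays INT-767 gave −0.63 (standard error 0.29, 95% interval −1.26 to 0.0058, unadjusted p = 0.0518). The differences followed the replicate number. Replicates 1 and 3 of Jag1 gave −1.05 and −1.59 in FFA+INT-767 against Media and −1.12 and −1.20 in INT-767 against Media, whereas replicate 2, which was at 5.09 in Media, gave 0.10 and 0.13. Replicate 3 was the highest array of Jag1 in 4 of 4 groups, and its mean over the groups was 6.08, compared with 5.13 for replicate 2. With the replicate number as a block, Jag1 reached an unadjusted p of 0.0487 in FFA+INT-767 against Media, 0.0436 in FFA against Media and 0.0101 for INT-767 over the 12 arrays, and passed no adjusted test. Such a p was then reached by 8.83%, 5.89% and 13.5% of all transcripts in the same comparisons.

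Single arrays of Media and of FFA moved the Jag1 differences. Without Media replicate 2 the FFA+INT-767 difference of Jag1 from Media was −1.34 (limma, unadjusted p = 0.000935, adjusted p = 0.451) and the INT-767 difference −1.22. Without Media replicate 3 they were −0.43 and −0.31. In FFA the Jag1 difference was 0.09 after Media replicate 3 was left out and −0.81 after replicate 2 of Media was. Leaving out FFA replicate 2 gave 0.05, and leaving out replicate 3 of that group gave −0.65. Adjusted p for Jag1 in FFA+INT-767 against Media ranged from 0.451 to 1 over 15 alternatives.

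Jag2, the other Jagged gene, had levels of 4.47, 4.62 and 4.87 in FFA+INT-767, 4.75, 4.88 and 4.89 in FFA, 4.69, 4.78 and 4.88 in INT-767 and 5.17, 4.60 and 4.77 in Media arrays, close to the filter value. Its groups overlapped in every comparison. The log2 difference in FFA+INT-767 against FFA was −0.19 (standard error 0.13, 95% interval −0.51 to 0.13), with each of the 3 same-numbered pairs negative at −0.28, −0.26 and −0.02. Against Media the FFA difference of Jag2 was −0.0019.

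Lfng, the fringe glycosyltransferase gene (chr5:140607341-140615545 on GRCm38.p6 in RefSeq), was the gene with the clearest separation from Media. Its level was 7.15, 7.19 and 7.63 in FFA+INT-767, 7.47, 7.73 and 7.38 in FFA, 7.53, 7.20 and 7.42 in INT-767 and 7.92, 7.81 and 8.31 in Media arrays. None of the 9 treated arrays reached the lowest Media array, and the 3 treated groups overlapped with each other. The share of all transcripts with such a separation of all 9 was not computed. Taken group by group, 10.6%, 7.01% and 7.08% of all transcripts had no overlap with Media in FFA+INT-767, FFA and INT-767. The group means were 7.32 ± 0.27, 7.52 ± 0.18, 7.38 ± 0.17 and 8.01 ± 0.26 in FFA+INT-767, FFA, INT-767 and Media arrays (SD, n = 3 each).

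In linear terms Lfng stood at 0.620 of its Media level with both agents, 0.712 with the fatty acids and 0.646 with INT-767. The log2 difference from Media was −0.69 in FFA+INT-767 (standard error 0.19, 95% interval −1.15 to −0.23, unadjusted p = 0.00902), −0.49 in FFA (standard error 0.17, 95% interval −0.90 to −0.08, unadjusted p = 0.0247) and −0.63 in INT-767 (standard error 0.17, 95% interval −1.04 to −0.22, unadjusted p = 0.00808). None passed adjustment over all transcripts, with limma's adjusted p at 0.916 for FFA+INT-767 and 1 for FFA and INT-767. These 3 comparisons share the 3 Media arrays, so they are not separate observations of the Media level. Each same-numbered pair was negative, which follows from the lack of overlap. The pairs gave −0.78, −0.62 and −0.68 in FFA+INT-767, −0.46, −0.08 and −0.93 in FFA and −0.39, −0.61 and −0.89 in INT-767 against Media.

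The 2 comparisons of Lfng that do not use Media gave small differences. It was −0.06 in FFA+INT-767 against INT-767 (standard error 0.17, 95% interval −0.46 to 0.34) and −0.20 in FFA+INT-767 against FFA (standard error 0.17, 95% interval −0.61 to 0.20), with overlap in both. The interaction, the fatty acid difference with INT-767 minus that without it, was 0.43 (standard error 0.25, unadjusted p = 0.109), so the differences of the 2 agents on Lfng were not shown to depend on each other. Over the 12 arrays INT-767 gave −0.42 (standard error 0.13, unadjusted p = 0.00904, limma adjusted p = 0.777) and the fatty acids −0.28 (standard error 0.13, unadjusted p = 0.0610). Adjusted p for the INT-767 value lay between 0.235 and 0.988 over 20 alternatives.

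Leaving out 1 array at a time kept Lfng below Media in each of the 18 refits. With no overlap between treated and Media arrays the sign could not change, so only the sizes are informative. The difference ranged from −0.84 to −0.54 in FFA+INT-767, from −0.59 to −0.34 in FFA and from −0.73 to −0.48 in INT-767 against Media. In FFA the unadjusted p rose above 0.05 when Media replicate 3 was left out (0.0650), and likewise for FFA replicate 1 (0.0674) or FFA replicate 3 (0.0817). By the methods' test, without moderation of the variances, it was 0.0556 for Lfng in FFA against Media, and Notch1 had 0.0398 there. With the replicate number as a block it was 0.00141 in FFA+INT-767, 0.0422 in FFA and 0.0052 in INT-767 against Media. The stromal markers were also lower than in Media, 9 of 9 in FFA+INT-767 (median −0.81), FFA (median −0.42) and INT-767 (median −0.61), although none of these passed adjustment. Over all transcripts 47.7%, 51.0% and 46.0% were higher than in Media in these groups. All 9 stromal markers overlapped with Media in FFA (standard errors 0.51 to 1.30) and in INT-767 (standard errors 0.50 to 1.39). The mean level of the 6 sinusoidal markers was 5.70–5.99 in FFA+INT-767, 6.02–6.09 in FFA and 5.93–5.99 in INT-767 arrays, against 6.11–6.25 in Media arrays. Of those tested, 4 of 5, 5 of 5 and 5 of 6 were lower than in Media in these groups, and 0 passed adjustment. Maf moved most, with means of 7.20, 7.87 and 7.58 against 8.32 in Media, whereas Gpr182 was higher in INT-767 by 0.11. The part of these markers in the Lfng result was not tested.

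**Figure D2:**
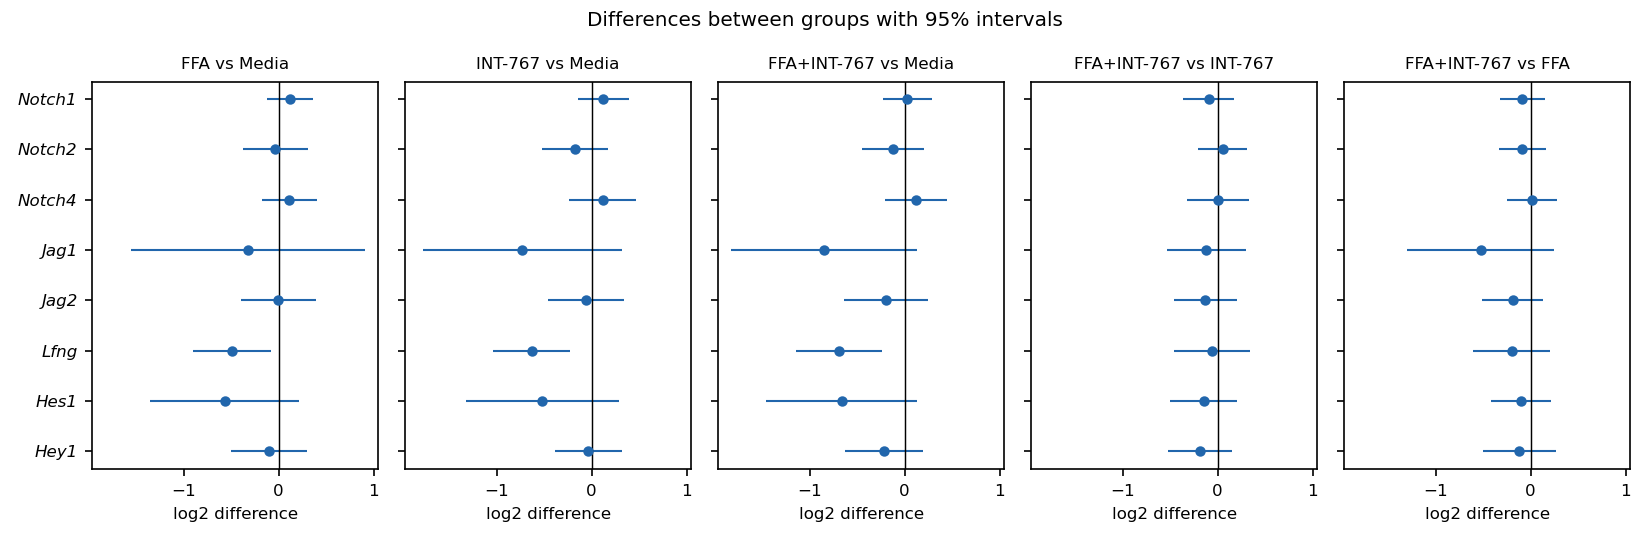
Log2 differences (points, x axis) with 95% intervals (lines) for the 8 Notch genes in 5 comparisons of 3 arrays against 3, the group named first minus the other. The Lfng interval lies below 0 in the 3 comparisons with Media and includes 0 in the other two, and the Jag1 and Hes1 intervals are wide.

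Hes1, the repressor gene that Notch turns on in many tissues (chr16:30065357-30067796), had levels of 6.42, 6.61 and 6.80 in FFA+INT-767, 6.69, 6.62 and 6.82 in FFA, 6.92, 6.59 and 6.76 in INT-767 and 6.94, 6.80 and 8.09 in Media arrays. The groups overlapped, and the treated arrays all lay between 6.42 and 6.92. Media replicate 3 stood apart from the other two Media arrays, and that group had a mean of 7.27 ± 0.71 (SD, n = 3).

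The difference of Hes1 from Media was −0.66 in FFA+INT-767 (standard error 0.34, unadjusted p = 0.0887), −0.57 in FFA (standard error 0.33, unadjusted p = 0.131) and −0.52 in INT-767 (standard error 0.34, unadjusted p = 0.170). Without Media replicate 3 these were −0.26, −0.16 and −0.11. All 9 same-numbered pairs of Hes1 with Media were negative, but they share 3 Media arrays and are not separate observations. Media replicates 1 and 3, at 6.94 and 8.09, lay above every treated array, which fixes the sign of their pairs. In replicate 3 the pairs were −1.28, −1.27 and −1.33 for FFA+INT-767, FFA and INT-767, and in replicate 2 they were −0.19, −0.17 and −0.21. With the replicate number as a block, the unadjusted p of Hes1 was 0.0329 in FFA+INT-767 against Media, with no adjusted call.

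Hey1, the other measured repressor gene, had levels of 4.57, 4.16 and 4.23 in FFA+INT-767, 4.66, 4.23 and 4.43 in FFA, 4.59, 4.51 and 4.42 in INT-767 and 4.52, 4.33 and 4.78 in Media arrays. It was over 4.5 in 6 of 12 arrays, so it was hardly above the filter value anywhere, and its groups overlapped. The difference from Media was −0.22 in FFA+INT-767 (standard error 0.17, 95% interval −0.63 to 0.19), −0.10 in FFA and −0.04 in INT-767. The 3 same-numbered pairs of Hey1 for FFA+INT-767 against INT-767 were −0.02, −0.34 and −0.19.

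**Figure D3:**
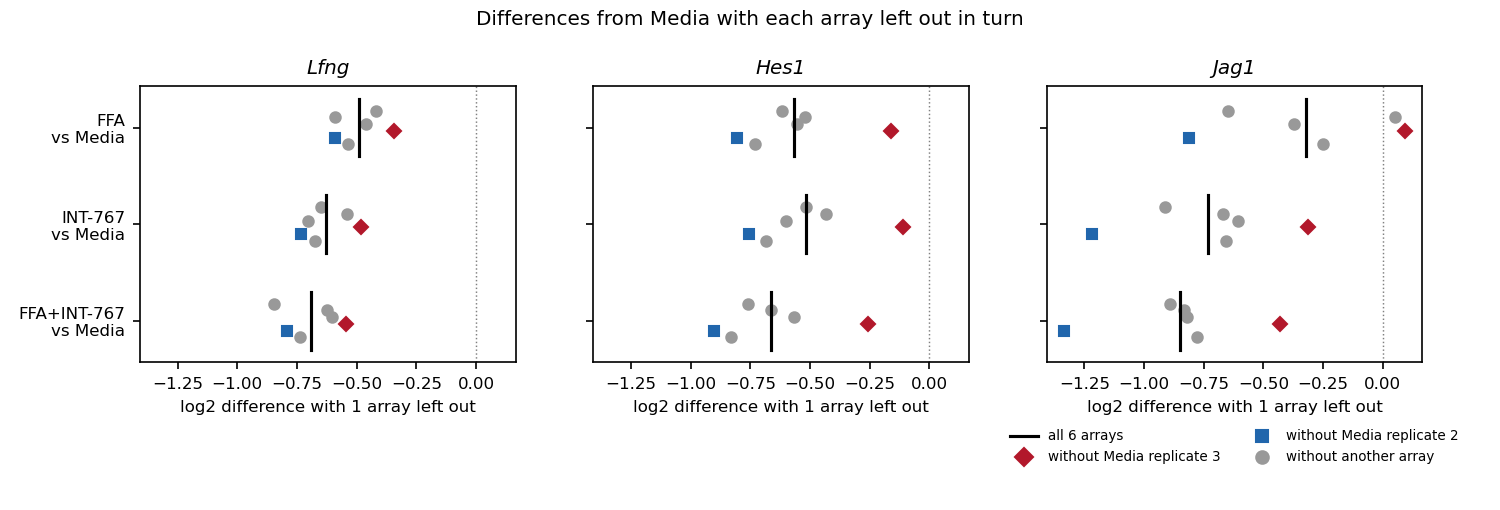
Log2 difference from Media (x axis) for Lfng, Hes1 and Jag1 with each of the 6 arrays left out in turn, for FFA, INT-767 and FFA+INT-767. Diamonds are without Media replicate 3, squares without Media replicate 2, circles without another array, and vertical bars are all 6 arrays. Lfng stays at or below −0.34, whereas Hes1 comes to −0.11 and Jag1 to 0.09 without Media replicate 3.

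From the lowest group mean to the highest, the order for Lfng was FFA+INT-767, INT-767, FFA and Media, and the step between FFA and Media was the only one between neighbors, for any of the 8 genes, in which the arrays did not overlap. Jag1 and Jag2 had the same order, and for Hes1 and Hey1 it was FFA+INT-767, FFA, INT-767 and Media. For the receptors the order was another in each gene, with Media lowest for Notch1 and Notch4 and highest for Notch2. In the test of any difference among the 4 groups, Lfng had an F of 6.47 (unadjusted p = 0.00909), Hes1 2.31 (unadjusted p = 0.134) and Jag1 1.65 (unadjusted p = 0.235).

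By limma, 0 of the 8 genes passed an adjusted p of 0.05 in any of the 9 comparisons, where 0% of all transcripts did. At an unadjusted p under 0.05 the count was 1 of 8, Lfng, in FFA+INT-767 against Media (5.38% of all transcripts), in FFA against Media (2.68%), in INT-767 against Media (2.92%), for INT-767 over the 12 arrays (6.27%) and among the 4 groups (3.16%). It was 0 of 8 in FFA+INT-767 against INT-767 (2.14%), in FFA+INT-767 against FFA (4.73%), for the fatty acids over the 12 arrays (2.4%) and for the interaction (2.69%). With no overlap between the arrays there were 2 of 8 genes in FFA against Media, Notch1 and Lfng (7.01% of all transcripts). There was 1 of 8, Lfng, in FFA+INT-767 against Media (10.6%) and in INT-767 against Media (7.08%). There were 0 of 8 in FFA+INT-767 against INT-767 (5.58%) and against FFA (9.78%).

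Most of the 8 genes had a negative difference in each comparison with Media. In FFA+INT-767 against Media 6 of 8 were lower, with a median difference of −0.21, beside −0.0097 over all transcripts. The counts were also 6 of 8 in FFA (median −0.07, all transcripts 0.0037) and in INT-767 (median −0.12, all transcripts −0.016) against the same Media arrays. In FFA+INT-767 against FFA 7 of 8 were lower with a median of −0.11 (all transcripts −0.016), and Notch4, at 0.01, was the other. Over all transcripts 47.7% were higher in FFA+INT-767, 51.0% in FFA and 46.0% in INT-767 against Media, and 46.3% in FFA+INT-767 against FFA. For the interaction 4 of 8 were positive, and the largest in size were Lfng at 0.43, Hes1 at 0.42 (standard error 0.39) and Notch1 at −0.21 (standard error 0.13, unadjusted p = 0.123).

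Across the 12 arrays Lfng and Hes1 had a Pearson correlation of 0.82 (Spearman 0.75), which was 0.68 over the 11 arrays without Media replicate 3 and 0.56 over the 9 treated arrays. Jag1 and Hes1 had 0.74 over 12 arrays and 0.35 over the 9 treated arrays. Within groups, after removal of the group means, Notch2 and Notch4 had 0.76. The arrays of a group and of a replicate number are not independent, so these values only describe the arrays. Among 13555 other genes with 1 symbol, those whose levels over the 12 arrays were most like Lfng were Lurap1l (0.94), Tgif2 (0.93), a repressor of TGF-beta responses, and Cdkn2b (0.92), a cell cycle inhibitor. Those most like Hes1 were Gse1 (0.96), A730020M07Rik (0.94) and Gm5431 (0.93). A730020M07Rik at 4.33 to 5.57 and Gm5431 at 3.89 to 5.27 lay near the filter value. The search was not repeated without Media replicate 3, where Hes1 stood at 8.09, so that array alone may set these values.

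The rest of the pathway was read from a list of 76 further genes, of which 63 were measured, and 0 of 63 passed adjustment by limma in any comparison. In the comparisons of 1 group with another, 1 to 4 of them had an unadjusted p under 0.05, or 1.59% to 6.35%, beside 2.14% to 5.38% of all transcripts. For INT-767 over the 12 arrays 47 of 63 were lower, with a median of −0.05 (all transcripts −0.013, with 45.5% of them higher). The 7 with an unadjusted p under 0.05 (11.1%, beside 6.27% of all transcripts) were all lower. They were Efnb2, Unc5b, Nrp1, Flt1 and Snai1 among genes that Notch is known to control, Tle3 among corepressors and Snw1 among nuclear partners of RBPJ. For the fatty acids 36 of 63 were lower (median −0.018, all transcripts 0.0048, with 52.1% of them higher). The 2 with an unadjusted p under 0.05 (3.17%, beside 2.4% of all transcripts) were Efnb2 and Flt1. With the replicate number as a block the counts were 13 for INT-767 (20.6%, beside 13.5% of all transcripts) and 4 for the fatty acids (6.35%, beside 6.19%).

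Efnb2, the arterial marker ephrin B2, had levels of 9.03, 9.47 and 9.11 in FFA+INT-767, 9.48, 9.92 and 9.33 in FFA, 9.71, 9.30 and 9.30 in INT-767 and 10.25, 9.87 and 10.05 in Media arrays. The FFA+INT-767 and INT-767 arrays lay below all Media arrays, and FFA replicate 2 lay within the Media range. Such a lack of overlap with Media was seen in 10.6% of all transcripts for FFA+INT-767 and 7.08% for INT-767. Of the 63 other pathway genes, 7 were lower and 1 higher without overlap in FFA+INT-767, and 4 were lower and 0 higher in INT-767. The Efnb2 difference over the 12 arrays was −0.50 for INT-767 (standard error 0.13, unadjusted p = 0.00265, limma adjusted p = 0.777) and −0.36 for the fatty acids (standard error 0.13, unadjusted p = 0.0187).

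Other vascular genes of the target list had differences of unequal size for INT-767. Nrp1, a coreceptor of VEGF, had −0.37 (standard error 0.13), Unc5b, a netrin receptor of endothelial tip cells, −0.36 (standard error 0.12) and Flt1, a VEGF receptor, −0.37 (standard error 0.14). Unc5b had levels of 8.70, 8.97 and 9.28 in FFA+INT-767, 9.10, 9.13 and 9.39 in FFA, 9.11, 9.00 and 9.10 in INT-767 and 9.84, 9.25 and 9.61 in Media arrays. All INT-767 arrays of Unc5b lay below all Media arrays, and 7.08% of all transcripts had no overlap in that comparison. The lymphatic VEGF receptor gene Flt4 had −0.05, the chemokine receptor gene Cxcr4 −0.03 and the transcription factor gene Sox17 −0.02 for INT-767. For the fatty acids the differences were 0.05 in Nrp1, −0.22 in Unc5b and −0.35 in Flt1 (standard error 0.14, unadjusted p = 0.0282). Snai1, a repressor of epithelial genes, had −0.28 for INT-767 (standard error 0.10). Of all 14 measured targets 13 were lower for INT-767 (median −0.24) and 9 for the fatty acids (median −0.11). The list does not separate targets that Notch raises from those it lowers, so these counts give no direction of Notch activity. Over all transcripts 45.5% were higher for INT-767 and 52.1% for the fatty acids. Heyl, the third Hey gene, was the exception for INT-767 at 0.10 (standard error 0.08). It was over 4.5 only in FFA replicate 3 (4.51) and FFA+INT-767 replicate 3 (4.52), so this value lies at the filter level. Flt1 and Kdr are also endothelial markers, of which 4 of 6 measured were lower for INT-767, with a median of −0.09.

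Among the nuclear genes and corepressors, Tle3, a Groucho corepressor that Hes proteins recruit, had −0.27 for INT-767 (standard error 0.08, unadjusted p = 0.00586). For INT-767 10 of 11 corepressors were lower (median −0.08), where 45.5% of all transcripts were higher. Tle3 levels were 10.17, 10.09 and 10.12 in FFA+INT-767, 10.44, 10.29 and 10.28 in FFA, 10.34, 10.17 and 10.03 in INT-767 and 10.59, 10.30 and 10.66 in Media arrays. Snw1, which binds RBPJ, had −0.15 (standard error 0.06). For the fatty acids Maml1, a Mastermind coactivator, had 0.24 (standard error 0.16), the acetyltransferase gene Crebbp 0.09 and the fringe gene Rfng 0.08 (standard error 0.07), and none of these reached an unadjusted p of 0.05. The receptor gene Notch3 had −0.30 for INT-767 and −0.17 for the fatty acids (standard error 0.26 each).

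The genes of receptor cleavage had small differences, most of them positive. For INT-767 7 of 9 protease genes were higher, with a median of 0.04, beside 45.5% of all transcripts. Among them were the gamma-secretase gene Aph1c at 0.28 (standard error 0.17, unadjusted p = 0.113) and the ADAM protease gene Adam17 at 0.08 (standard error 0.06). Aph1c has a near-identical copy, Aph1b, and probes could read both. Psenen and Aph1a of gamma-secretase and the histone deacetylase gene Hdac1, the 3 listed genes with the highest mean signal, had differences of −0.03 to 0.04 for either agent. For the interaction 31 of 63 genes were positive. The 1 with an unadjusted p under 0.05 (1.59%, beside 2.69% of all transcripts) was the corepressor Tle2 at −0.28 (standard error 0.12). Its highest level was 4.53 in INT-767, 4.48 in Media, 4.47 in FFA and 4.29 in FFA+INT-767 arrays. Tle2 thus passed the filter of 4.5 only through the INT-767 group, where it was highest, so its value is no support for an interaction. With the filter of 4.5 in at least 3 arrays the count was 0.

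**Figure D4:**
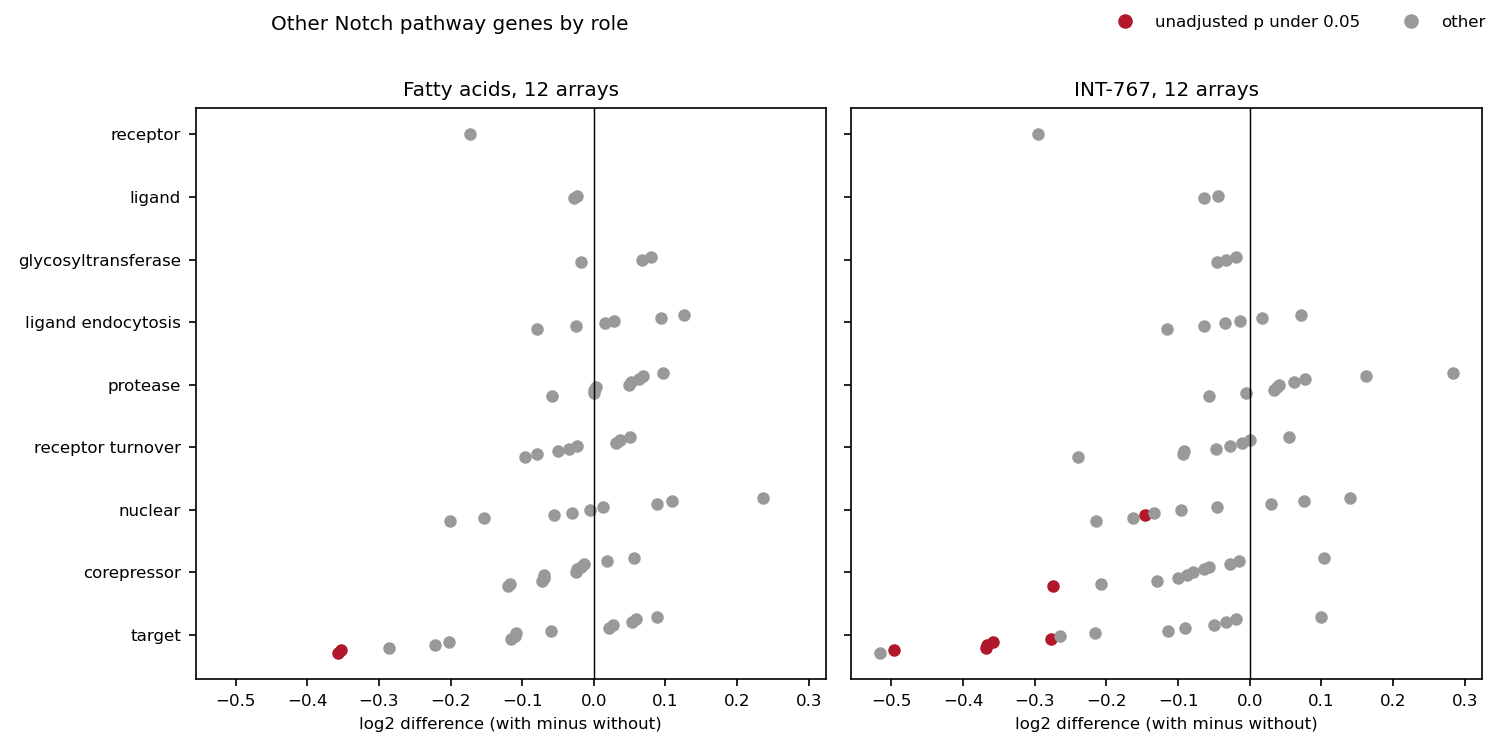
Log2 differences over the 12 arrays (x axis, arrays with the agent minus those without it) for 63 other Notch pathway genes by role (y axis), for the fatty acids and for INT-767. Each point is a gene, red where the unadjusted p was under 0.05. The red points lie among targets, corepressors and nuclear genes, all to the left of 0.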

How the data were processed

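Gene expression was measured in 12 cultures of TSEC on Mouse Gene 2.0 ST arrays, 3 each for FFA+INT-767, FFA, INT-767 and Media. The authors computed the deposited log2 expression values in Partek 6.6, by GC-RMA according to the methods but by RMA according to the submitters' notes, and every deposited transcript was over 4.5 in at least 1 array. The genome build behind the table is not given in the sources used here. Array medians were 5.76 to 5.87, and 21150 to 22137 transcripts were over 4.5. The 3 arrays per group limit the precision.

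The log2 values were used as deposited in R 4.3.3 with limma 3.58.1. Each comparison of groups was fitted on its 6 arrays without a block, over transcripts above 4.5 in at least 1 of them, and each agent, their interaction and the 4 groups on all 12 arrays. p-values come from limma's moderated tests, adjusted by Benjamini-Hochberg over all transcripts of the fit. The methods call the arrays triplicate wells and the labels biological replicates, so p-values measure only how these samples spread, and that spread may be technical.

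Gene names came from the platform's annotation. Of the transcripts, 14317 carried 1 symbol, for 13556 genes. The members and lists were chosen with earlier results of these data known. All members were named, and from the other pathway genes the 3 with the smallest p in each direction for each agent over 12 arrays and the 3 of highest mean, with others that reached an unadjusted p under 0.05 named after their values were seen.

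Replicate numbers come from the labels. Same-numbered arrays deviated together (correlation 0.2 to 0.54 in 18 pairs), so the fit with the replicate number as a block is given where it changes a count. Other alternatives changed the filter (none, or 4.5 in at least 3 arrays), the scaling (equal array medians, or a further quantile normalization), the variance prior (an intensity trend, robust), the arrays of the fit (all 12 together), the moderation (the methods' unmoderated ANOVA) and the value of a gene (its transcripts averaged), and left out each array in turn. The scripts were tested on simulated data. Promoter sequences are from RefSeq on GRCm38.p6.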

Additional observations from a re-analysis of the deposited data

How the results depend on the processing

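Of 1079 member values under alternatives, 1035 kept their direction and their side of the threshold on the adjusted p and 44 changed sign. No Notch gene passed adjustment by limma under any alternative run. With the replicate number as a block, members at an unadjusted p under 0.05 were 3 in FFA+INT-767 against Media (8.83% of all transcripts), 2 in FFA against Media (5.89%) and 2 for INT-767 over 12 arrays (13.5%), and the block changed no other member count. With all 12 arrays in 1 fit the count in FFA+INT-767 against Media was 2, where 1633 of 26076 transcripts reached such a p. The methods' ANOVA, unmoderated, gave 1 for the interaction, Notch1 (747 of 26076 transcripts). In FFA against Media that ANOVA gave Notch1 in place of Lfng (unadjusted p = 0.0398 and 0.0556), beside 743 of 24838 transcripts. For the other pathway genes the block gave 6 in INT-767 against Media (3 without it, 8.07% of all transcripts with it), 5 in FFA+INT-767 against FFA (1 without it, 12.1%), 8 among the 4 groups (4 without it, 9.23%) and 0 in FFA against Media (2 without it, 5.89%). Over all alternatives that kept every array, these counts were 4 to 7 in FFA+INT-767 against Media, 0 to 2 in FFA and 2 to 6 in INT-767 against Media, 0 to 2 in FFA+INT-767 against INT-767, 1 to 5 against FFA, 2 to 4 for the fatty acids, 5 to 13 for INT-767, 0 to 1 for the interaction and 4 to 8 among the 4 groups. All transcripts at such a p were 1161 to 2230, 563 to 1463, 635 to 2028, 457 to 1183, 1024 to 3008, 558 to 1613, 1474 to 3512, 589 to 1280 and 727 to 2407 in the same order, of 21855 to 26076 tested.

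With quantile normalization applied again, Jag2 was 0.0326 in FFA against Media, and Notch4 was −0.0241 in FFA+INT-767 against INT-767 and −0.0215 against FFA. With arrays shifted to the same median, Hey1 was 0.0006 in INT-767 against Media, Notch4 was −0.0307 in FFA+INT-767 against INT-767, and Notch1 and Notch2 were −0.0103 and −0.0122 for the fatty acids over 12 arrays. The cause was not tested.

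Leaving out 1 array at a time gave 1 to 3 members at an unadjusted p under 0.05 in FFA+INT-767 against Media, 0 to 1 in FFA against Media, 1 to 2 in INT-767 against Media, 0 to 1 in FFA+INT-767 against FFA, 0 to 1 for the fatty acids and 1 to 2 for INT-767 over 12 arrays, and 0 to 3 among the 4 groups. Of the 24291 to 26030 transcripts tested, such a p was reached by 799 to 1738, 553 to 1421, 568 to 1152, 729 to 1895, 526 to 990, 1122 to 2071 and 605 to 1052 in the same order. The 3 members in FFA+INT-767 against Media came without Media replicate 2, beside 1738 of 24915 transcripts. For the fatty acids Lfng was then at −0.37 without FFA+INT-767 replicate 3 (unadjusted p = 0.00945). In FFA against Media, Notch2 ranged from −0.1215 to 0.0850, Jag1 from −0.8103 to 0.0944, Jag2 from −0.1268 to 0.1593 and Hey1 from −0.2090 to 0.0190. In INT-767 against Media, Jag2 ranged from −0.1862 to 0.0999 and Hey1 from −0.1438 to 0.0842. In FFA+INT-767 against INT-767, Notch2 ranged from −0.0027 to 0.1084, Notch4 from −0.0774 to 0.1023, Jag1 from −0.2403 to 0.0637 and Lfng from −0.2147 to 0.0273. Notch4 ranged from −0.0599 to 0.0728 in FFA+INT-767 against FFA and Notch1 from −0.0071 to 0.0611 in FFA+INT-767 against Media. Over 12 arrays Notch1 ranged from −0.0136 to 0.0490 and Notch2 from −0.0252 to 0.0667 for the fatty acids, and Notch1 from −0.0216 to 0.0434 for INT-767. For the interaction Notch2 ranged from −0.0331 to 0.1735, Jag1 from −0.2127 to 0.6919 and Hey1 from −0.2078 to 0.0255.

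Levels of Notch1, Notch4, Jag2 and Hey1 lay near the filter value of 4.5, where signal limits what a difference can show. Among the other pathway genes the same holds for Heyl, Tle2, Cxcr4 and the group means of Notch3, among others.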
